A study of Drosophila melanogaster with 2 samples.

Results

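Genes of the cell cycle and DNA replication were examined for occupancy by CG8388 in ChIP-seq of fly embryos, an assay that sequences the DNA recovered with an immunoprecipitated protein. The members were 34 named protein-coding genes out of 13945 on the 6 chromosome arms that carried peaks, and the remaining 13911 served for comparison. They fall into 14 replication factors, 11 cyclins and kinases, and 9 other regulators. Chromatin came from whole Drosophila melanogaster embryos of both sexes, aged 0 to 14 h, of the transgenic strain CG8388-GFP, which makes CG8388 with GFP at its C-terminus, and an antibody to GFP was used for precipitation. Both libraries, biological replicates 2 and 3 per the labels, came from this line, and no second condition, untagged or mock library was analysed here. Whole embryos mix cell types and ages, so a peak cannot be assigned to cells of a type or to a time.

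Progress through the cell cycle is driven by cyclins bound to Cdk kinases, which Cdc25 phosphatases activate, the Cdk inhibitor dap holds back, and the anaphase-promoting complex (APC/C) ends by marking cyclins for destruction. Replication starts where the origin recognition complex (ORC) and dup, the fly Cdt1, load the MCM helicase, and the sliding clamp PCNA then tethers DNA polymerases. Many genes of S phase are transcribed under E2F factors, in which E2f1 activates, E2f2 represses, Dp is the shared partner and the retinoblastoma protein Rbf restrains them. Fly embryos begin with rapid divisions run on maternal products, and zygotic transcription of stg (a Cdc25) later times mitosis. A fall of CycE and a rise of dap accompany the exit from the cycle.

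A promoter summit is a peak's highest point within 500 bp of any transcription start site (TSS) of a gene, and a rank is the position of a peak when its list is sorted by the authors' signal, with 1 the highest. The list that passed the authors' reproducibility threshold holds 6075 peaks, which are the 6075 highest of the pooled list. The pooled list and the list of each replicate hold 30000 peaks each, so their lengths are no measure of binding. Peak lists carry no read totals, so sequencing depth is unknown here, and intervals below cover counting error only. CG8388 itself had a thresholded promoter summit at rank 5406, with ranks of 6260 in replicate 2 and 5931 in replicate 3.

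A thresholded promoter summit was found at 12 of the 34 members (35.3%, Wilson 95% interval 21.5 to 52.1), and at 2827 of the other protein-coding genes (20.3%, 19.7 to 21.0). The members were CycE, Cdk1, aurA and aurB among cyclins and kinases, E2f1, Dp, dap, twe and fzr among the other regulators, and dpa, Mcm2 and dup among replication factors. Replication factors had 3 of 14 (21.4%, 7.57 to 47.6), close to the background of 20.3%. Cyclins and kinases had 4 of 11 (36.4%, 15.2 to 64.6), and the other regulators 5 of 9 (55.6%, 26.7 to 81.1). A gene with more TSSs offers more window to a summit. A single TSS was annotated for 71.4% of replication factors, 63.6% of cyclins and kinases, 33.3% of the other regulators and 73.5% of other genes. With only the most upstream TSS, CycE and E2f1 were lost. The intervals of the 3 classes overlap, and their difference was not tested, since the design has 1 group and genes that share a pathway are not replicates. With each summit assigned to the nearest TSS, cyclins and kinases had 1 of 11 (9.09%), below the 15.1% of other genes.

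**Figure D1:**
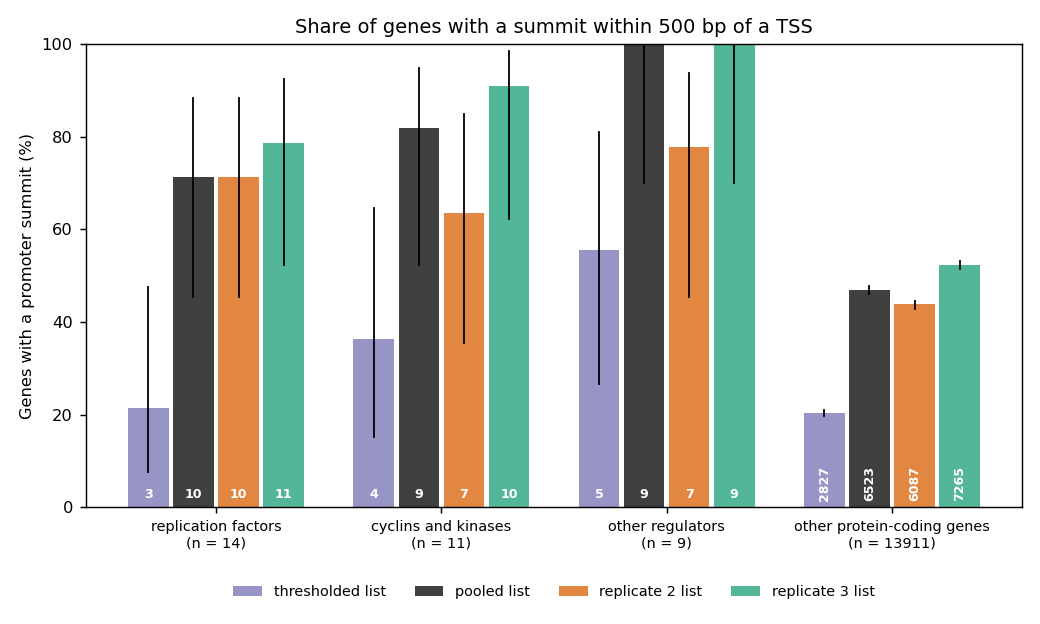
Share of genes with a summit within 500 bp of a TSS (y axis, percent) in each peak list, for 3 classes of cell cycle genes and for the 13911 other protein-coding genes. Lines are Wilson 95% intervals and the number in a bar is the count of genes. In the pooled list all 9 other regulators have a promoter summit, against 46.9% of other genes.

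The highest thresholded promoter summit with 50 bases to each side is shown for 6 of the 12 members, to let the base composition at their summits be seen. Dp, dpa and fzr, which rank above aurA, are not among them, and the GC content at their highest summits was 37.6%, 29.7% and 30.7%. They are from dm6, 5′ to 3′ on the strand of the gene. Capitals mark TATAAA, a core promoter element, or the cell cycle homology region (CHR), spelled TTTGAA, on either strand.
CycE, chr2L:15747030-15747130, minus strand: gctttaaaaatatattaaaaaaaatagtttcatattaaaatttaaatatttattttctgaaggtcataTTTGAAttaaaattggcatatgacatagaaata
Cdk1, chr2L:10386450-10386550, minus strand: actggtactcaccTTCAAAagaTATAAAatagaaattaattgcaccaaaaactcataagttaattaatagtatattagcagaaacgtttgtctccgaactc
aurB, chr2L:10858327-10858427, minus strand: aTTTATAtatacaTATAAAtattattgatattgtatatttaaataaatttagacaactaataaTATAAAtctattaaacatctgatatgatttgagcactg
Mcm2, chr3R:8264677-8264777, plus strand: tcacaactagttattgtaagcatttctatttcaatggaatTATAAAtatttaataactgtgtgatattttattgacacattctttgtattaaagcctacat
E2f1, chr3R:21633300-21633400, minus strand: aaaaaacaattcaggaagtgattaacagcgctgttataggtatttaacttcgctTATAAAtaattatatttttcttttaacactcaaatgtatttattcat
aurA, chr3R:11962900-11963000, plus strand: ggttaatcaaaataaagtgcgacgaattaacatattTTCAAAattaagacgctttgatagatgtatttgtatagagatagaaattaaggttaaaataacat

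The GC content of the stretches shown was at most 29.7%. It was 15.8% at the CycE and aurB summits, and the median was 26.2% over the 14 member peaks (range 15.8 to 50.5), against 29.7% over 2235 other promoter peaks. The highest value, 50.5%, belonged to the weakest of 3 Dp peaks. A CHR match lay at 5 of the 14 member summits and at 19.6% of the other promoter summits. TATAAA matches were likewise at 5 of 14, against 26.8%. No summit window of a member held an E2F element or the DNA replication-related element (DRE, TATCGATA), which 0.940% and 2.19% of the other summit windows held. Within 100 bp of the summit these values were different, with an E2F element at 1 of 14 member summits against 2.42% of others, DRE at 0 against 5.73%, TATAAA at 8 against 41.1% and the CHR at 6 against 32.8%.

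CycE, the cyclin that with Cdk2 starts S phase, had the highest promoter peak of all members. Its summit stood at thresholded rank 567 with a signal of 694.5, in intron 1, 470 bp upstream of the nearest of its 3 TSSs. The same interval held a further summit at rank 1484, 676 bp upstream of that TSS. In replicate 2 the overlapping peak ranked 351 but its summit was at -562 bp, outside the promoter window, and in replicate 3 it ranked 1114 at -440 bp. The peak was thus high in both replicates, and in replicate 2 its summit fell outside the promoter window.

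Cdk1, the kinase that drives entry into mitosis, ranked 1305 with a signal of 433.6, at 962 in replicate 2 and 2280 in replicate 3. Its summit lay 238 bp upstream, between its TSS and that of mRpS7 (a mitochondrial ribosomal protein), which is nearer. The mitotic kinases aurB, of the chromosomal passenger complex, and aurA, of the centrosomes and spindle, ranked 1670 and 3542. The aurB peak ranked 1545 in replicate 2 and 2031 in replicate 3. That of aurA was the less even of the pair, at 1964 in replicate 2 and 11420 in replicate 3.

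The remaining cyclins and kinases had lower promoter peaks or none in the pooled list. The kinase polo, which acts in mitosis, ranked 6921 in the pooled list, CycB3 9254, CycA 9311, Cdk2 11161 and Cdk4, the partner of CycD, 15874. No pooled promoter summit was listed for CycB or CycD, although replicate 3 listed them at ranks 26854 and 10948. Away from promoters the picture for CycB was different, because of all thresholded peaks whose nearest TSS is a member's, the highest belonged to it. This peak ranked 66 with a signal of 1952.7, and it ranked 85 in replicate 2 and 49 in replicate 3. Its summit lay 3344 bp from the nearest CycB TSS, beyond the 3′ end of the gene, and the TSS of the next protein-coding gene, blw, was 3860 bp away. Cdk4 had a thresholded summit 539 bp upstream at rank 2825, just beyond the promoter window, and another inside the gene at rank 4197.

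Among the other regulators, Dp had 3 thresholded promoter summits. The highest, at rank 1012, lay in intron 1, 389 bp downstream of a TSS, and ranked 1447 in replicate 2 and 796 in replicate 3. The next, at rank 1854, had replicate ranks of 2027 and 1834, and the weakest, at rank 5829, those of 7418 and 5443. E2f1 had a promoter summit at rank 2664, 277 bp upstream of an internal TSS, with ranks of 1904 in replicate 2 and 5254 in replicate 3. For the repressor E2f2 and for Rbf, promoter peaks were listed only below the threshold, at pooled ranks of 16350 and 27401. The Rbf rank was the lowest of the 28 members with a pooled promoter summit.

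E2f1 also held 8 thresholded summits within its 40568 bp, at ranks 1669, 1947, 1979, 1981, 2210, 2664, 4035 and 5681. Of these, 7 lay in introns and the highest in a 5′ UTR, and only that at rank 2664 was a promoter summit. Each overlapped a peak in both replicate lists, at ranks from 1521 to 6517 in replicate 2 and from 1223 to 6421 in replicate 3. The density was 1.97 thresholded summits per 10 kb in E2f1, against 0.391 per 10 kb over the other protein-coding genes. Of 452 other genes at least as long, 46 had 8 or more. Within genes as a whole, 5 of 34 members (14.7%, 6.45 to 30.1) had a thresholded summit, namely CycE, Cdk4, E2f1, Dp and dpa, against 13.7% of other genes, so the members' share was close to the background. Median gene length was 2869 bp for members and 2163 bp for other genes.

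**Figure D2:**
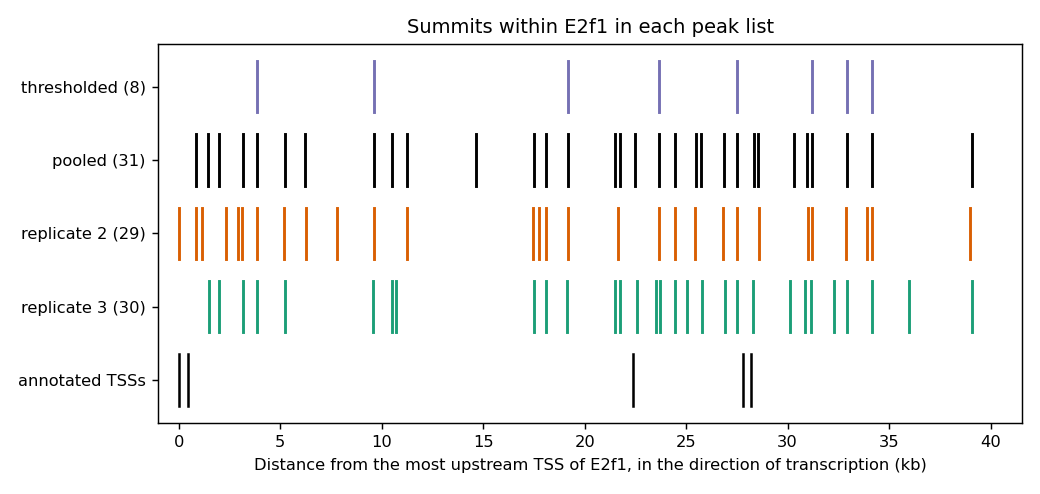
Summits within E2f1 in each peak list and its 5 annotated TSSs, by distance from the most upstream TSS in the direction of transcription (x axis, kb). Vertical strokes are summits, and the number beside a list is its count. The 8 thresholded summits are spread over the gene, and 7 of them stand more than 500 bp from a TSS.

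The APC/C activators, the Cdc25 phosphatases and dap gave mixed pairs. For fzr, the Cdh1 that keeps the APC/C active outside mitosis, the rank was 2818 (3725 in replicate 2 and 2558 in replicate 3). The fzr summit lay 468 bp upstream and inside another protein-coding gene, Pp2C1. For fzy, the Cdc20 of mitosis, the rank was 6568, below the threshold. The fzy promoter was listed in replicate 3 at rank 5399 and not in replicate 2. The Cdc25 of the germ line, twe, ranked 4262 (4136 in replicate 2 and 5584 in replicate 3). Its relative stg, the Cdc25 of embryonic mitoses, ranked 10396 in the pooled list, with no promoter summit in replicate 2 and rank 6813 in replicate 3. The Cdk inhibitor dap ranked 5261 at its promoter (4272 in replicate 2 and 6370 in replicate 3). A higher dap peak, at rank 1332, stood 723 bp upstream and ranked 1777 in replicate 2 and 1001 in replicate 3.

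The 3 replication factors with a thresholded promoter summit, a share near the background of 20.3%, were dpa, Mcm2 and dup. The MCM helicase genes dpa (Mcm4) and Mcm2 ranked 1878 and 2043, with signals of 341.7 and 322.5. The dpa peak ranked 1888 in replicate 2 and 2042 in replicate 3, and that of Mcm2 ranked 1340 and 3698. The licensing factor dup was near the threshold at rank 5878, with its overlapping peak at 3670 in replicate 2 and 11532 in replicate 3. Below the threshold in the pooled list were Mcm5 (6696), geminin (7957), which inhibits dup, Orc1 (10405), Orc4 (10629), Mcm6 (12914), PCNA (14984) and Orc5 (17650).

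None of the 5 ORC genes had a thresholded promoter summit, and 3 had a pooled one. Orc2 had none in the pooled list but ranked 6227 in replicate 2 and 9800 in replicate 3. Mcm7 was listed in replicate 2 alone, at rank 24400. For Mcm3 and Orc6 no promoter summit was listed in any of the 4 lists, and Orc6 had none within the gene either. A gene without a listed peak may still be bound at a level these lists do not reach.

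**Figure D3:**
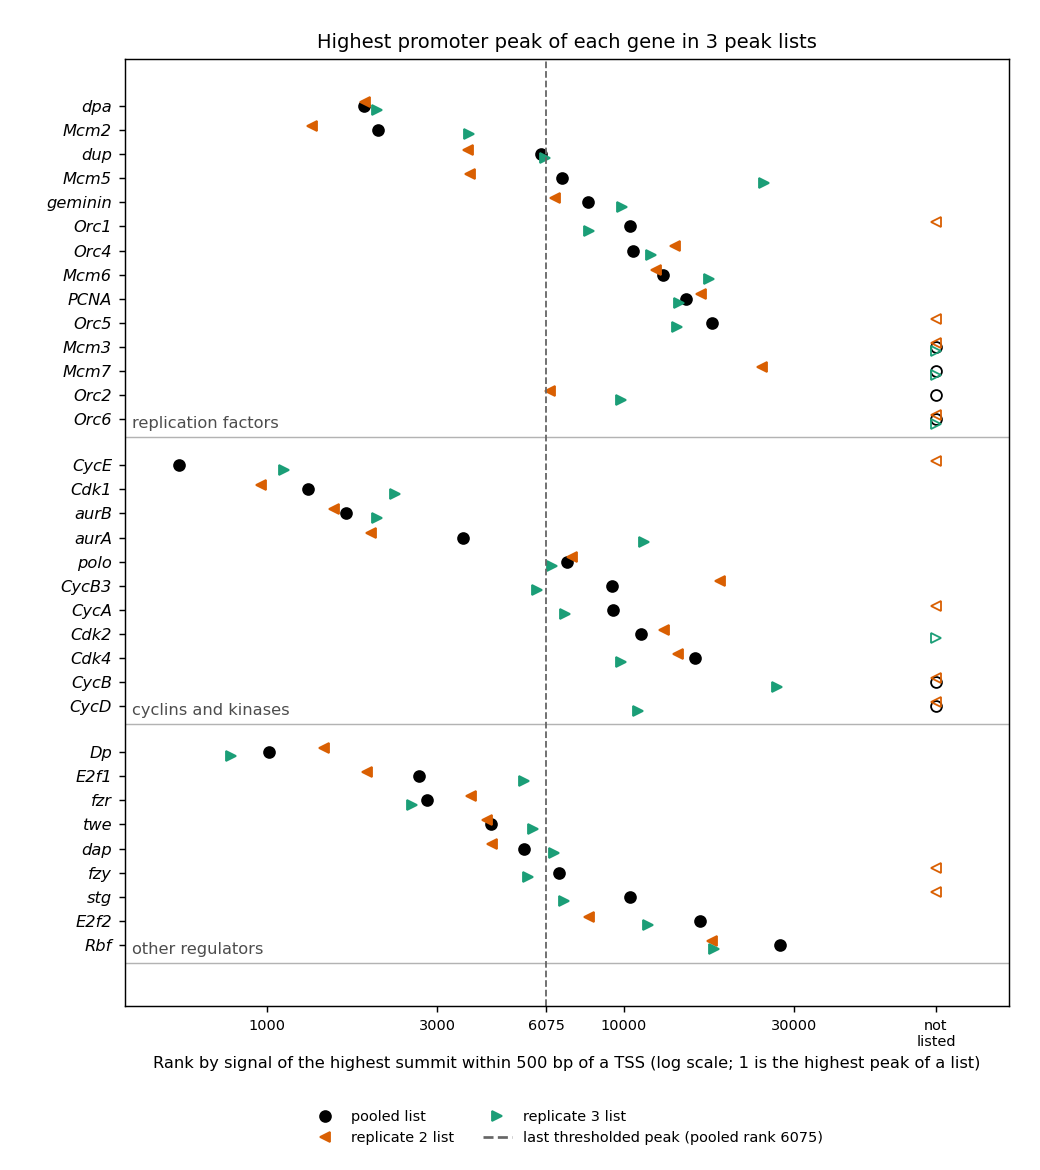
Rank of the highest promoter peak of each of the 34 genes (x axis, log scale) in the pooled, replicate 2 and replicate 3 lists, by class. Filled symbols are listed peaks, open symbols at the right mean that no promoter summit is listed, and the dashed line is the last thresholded peak, 6075. Points left of the line include 3 of 14 replication factors in the pooled list, and Mcm3 and Orc6 are open throughout.

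Below the threshold, a further 16 members had a promoter summit in the pooled list. With the 12 above it, the pooled list had a promoter summit at 28 of 34 members (82.4%, 66.5 to 91.7) and at 46.9% of other genes. This comprised 10 of 14 replication factors, 9 of 11 cyclins and kinases, and all 9 other regulators. Replicate 2 listed 24 members (70.6%, against 43.8% of other genes) and replicate 3 listed 30 (88.2%, against 52.2%). Both lists had 22 members, replicate 2 alone had Cdk2 and Mcm7, and replicate 3 alone had CycA, CycB, CycD, CycE, Orc1, Orc5, fzy and stg. Among other genes, 904 were in replicate 2 alone and 2082 in replicate 3 alone, so replicate 3 listed the larger number in both sets of genes. The listed members did not rank far from other listed genes, with a median pooled rank of 6808 for the 28 members and 7311 for 6523 other genes. For replication factors that median was 9181, for cyclins and kinases 6921 and for the other regulators 5261.

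When the highest 6075 peaks of each replicate were taken alone, each replicate gave 12 members, and 9 genes were the same in both. Of these, dup counted through different summits, rank 3670 at -288 bp in replicate 2 and rank 6016 at -78 bp in replicate 3. Those in replicate 2 alone were aurA, dap and Mcm5, and those in replicate 3 alone were CycE, CycB3 and fzy. The members nearest the signal threshold were Dp (5829, its weakest peak) and dup (5878) inside it, and fzy (6568), Mcm5 (6696) and polo (6921) outside it. Nearest the edge of the 500 bp window were CycE (-470 bp) and fzr (-468 bp) inside, and Cdk4 (-539 bp), the further CycE summit (-676 bp) and dap (-723 bp) outside.

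Most member promoters with a thresholded peak were shared with a gene on the other strand. This held for 8 of the 12 (66.7%), against 54.8% of the 2827 other genes with a thresholded promoter summit. The Mcm2 peak also lay 276 bp upstream of RPA1, the large subunit of the single-stranded DNA-binding replication protein A, so 2 replication genes share it. The other pairs were Cdk1 and mRpS7, aurB and Stam (an adaptor in endosomal sorting), dpa and didum (a myosin V), aurA and CG3281, twe and CG4935, the weakest Dp peak and Fsn (an F-box protein), and dup and SRPK (a kinase of splicing factors). The TSS of the neighbour was nearer to the summit than that of the member for Cdk1, aurA, aurB and dup. Peaks cannot say which gene of a pair they serve. Of 12 members with an opposite TSS within 500 bp upstream, 7 (58.3%) had a thresholded promoter summit, as did 5 of the other 22 (22.7%). Among other genes the values were 39.3% of 3803 with such a neighbour and 13.2% of 10108 without.

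Thresholded summits of members tended to be upstream of the nearest TSS of the gene, as did those of other genes. The median offset of the highest peak was -240 bp for the 12 members, 11 of which were upstream, against -143 bp and 87.2% upstream for the other genes. The exception was Dp. Upstream of the nearest TSS can still be inside a gene with several TSSs. The promoter summits of CycE, E2f1 and dpa lay inside the gene, 1070, 27521 and 135 bp downstream of its most upstream TSS.

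**Figure D4:**
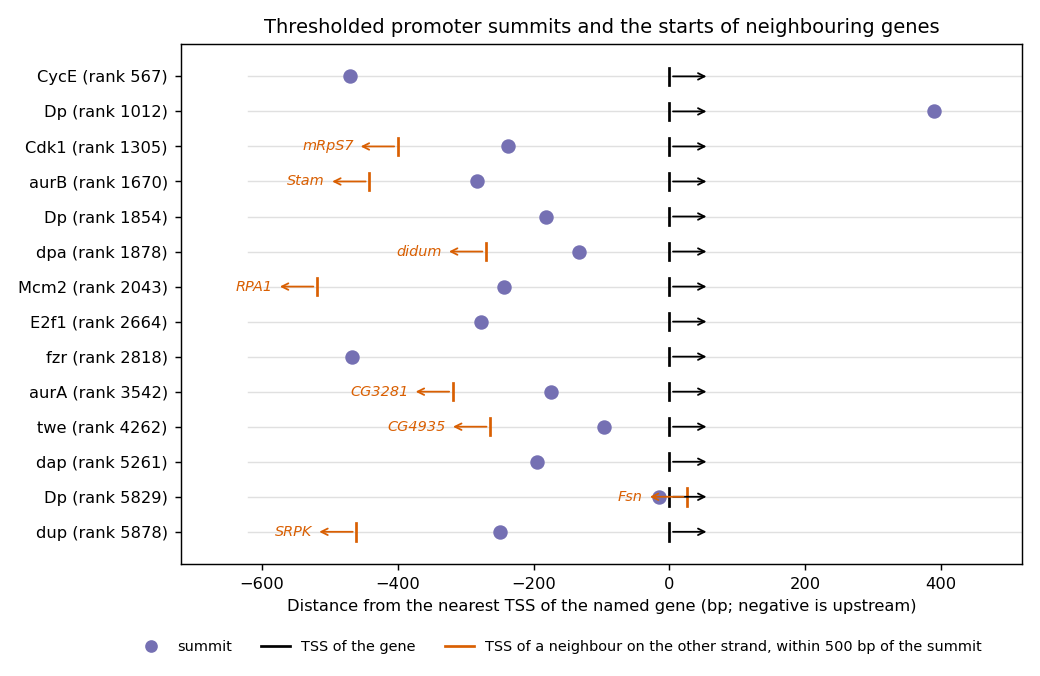
Position of each thresholded promoter summit (point) from the nearest TSS of the gene at 0 (x axis, bp; negative is upstream), with the TSS of a neighbour on the opposite strand where the peak is shared. Rows run from the highest rank to the lowest. All summits but that of Dp at +389 bp lie upstream of the nearest TSS of the gene, and 8 lie near the start of a neighbour. Those of CycE, E2f1 and dpa, and those of Dp at ranks 1012 and 1854, nevertheless lie inside the gene.

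Of the 9 members with an E2F element in the promoter, 8 were replication factors. In the window from 250 bp before to 50 bp after the most upstream TSS, these elements (TTTCCCGC, TTTGGCGC, TTTCGCGC or TTTGCCGC, on either strand) lay at 8 of 14 replication factors, 0 of 11 cyclins and kinases and 1 of 9 other regulators, against 6.41% of other promoters. The 8 were Mcm2, Mcm3, Mcm5, Mcm6, Orc1, Orc4, Orc5 and Orc6, and the other regulator was stg. The 8 elements started between 6 bp before and 36 bp after the TSS. Among the 14 replication factors, Mcm2 was the only member with both an element and a thresholded promoter summit, and its element lay on the far side of the TSS from the summit, which was at -243 bp. Over all members, 1 of the 12 with a thresholded summit and 8 of the 22 without had an E2F element, against 6.79% and 6.32% of other genes. Within the replication factors alone, 1 of the 3 with a thresholded summit and 7 of the 11 without had an element. Whether the split over all members follows the classes was not tested.

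The sequence around 6 of these 9 elements is given below as 30 bases of dm6, on the strand of the gene and chosen after the matches were seen, with the element in capitals. On the opposite strand an element reads as its reverse complement.
Mcm2, chr3R:8264991-8265020, plus strand: tcgattagcaaacatTTTCCCGCgcatttt
Mcm3, chrX:5323838-5323867, plus strand: cacactacgctTTTCCCGCgaaaaaacttt
Mcm5, chr3R:10788545-10788574, plus strand: cggtaattttgGCGGCAAAatattcgcaca
Mcm6, chrX:6674389-6674418, plus strand: gtcagaaaaagGCGCCAAAaccgagcaaag
Orc5, chr2L:13829836-13829865, plus strand: agagggaataaTTTGGCGCcatttcaatgg
stg, chr3R:29255795-29255824, minus strand: taaaagctcgcGCGCCAAAatcagtggcct

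Of the elements shown, TTTGGCGC is that of Mcm6, Orc5 and stg, on the gene's strand in Orc5 and on the other in Mcm6 and stg, while Mcm2 and Mcm3 share TTTCCCGC. DRE, the element bound by Dref and known from promoters of replication genes such as PCNA, was at 5 of 34 member promoters (14.7%) and 9.35% of others. These were CycA, Cdk2, Orc2, Orc5 and PCNA, and none of them had a thresholded promoter summit. In the wider list given below (112 further cell cycle and replication genes), DRE was at 34, of which 10 had such a summit. Among other genes, DRE was at 13.8% of promoters with a thresholded summit and at 8.23% without. Core promoter motif 1 (GGTCACACT) was at 6 members (CycB, CycB3, aurB, fzy, Mcm3 and Orc5; 17.6%), against 6.02%. The initiator (TCAGTT or TCAGTC) was at 17.6% of member promoters and 35.2% of others, and the CHR at 17 of the 34 member promoters and 40.7% of others. The word ATTTAAAA was at 11 members (32.4%) and 14.2% of others, and GAGAGAG, of the GAGA factor, at CycE and dap (5.88%, against 5.87%). ATTTAAAA lay within 50 bp of 0 of 14 member summits and 8.23% of other promoter summits. Within 100 bp it lay at 4 of 14 and at 14.4%. No member promoter held CAGGTAG, the Zelda motif of early embryos, or the E-box spelled CACGTG, which 1.65% and 4.25% of other promoters held. Median GC content of these windows was 35.5% for members and 37.9% for others. A match describes letters in a window and says nothing of whether a factor binds there.

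**Figure D5:**
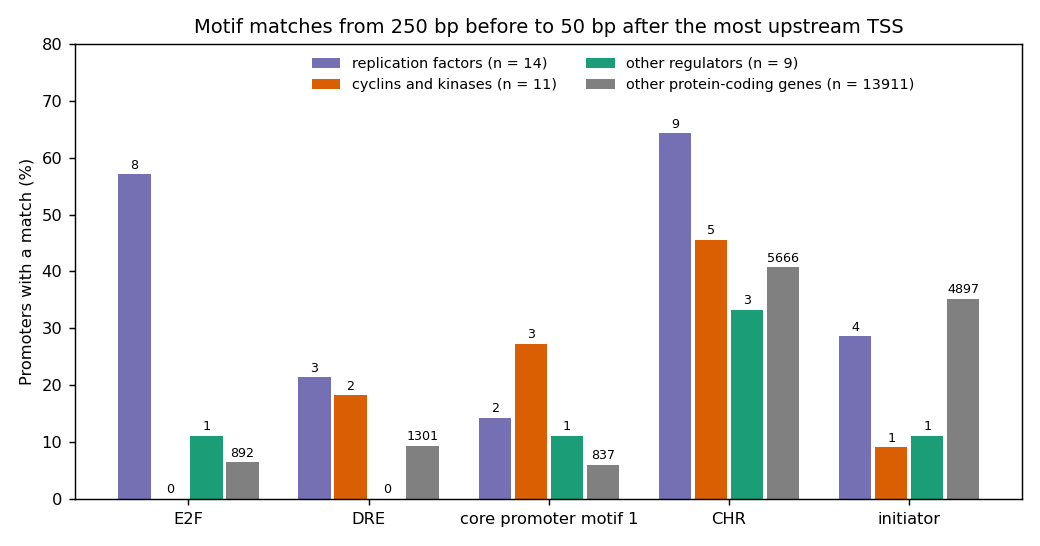
Share of promoters with a match to each motif (y axis, percent) for the 3 classes and for other protein-coding genes. Numbers above bars are counts of promoters. E2F elements are at 8 of 14 replication factors and 0 of 11 cyclins and kinases, against 6.41% of other promoters.

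In a wider list of 112 further cell cycle and replication genes, 32 (28.6%) had a thresholded promoter summit, and 27 of the 32 shared the peak with another protein-coding gene, as did 57.6% of the 2827 other genes with such a summit. The 41 genes of replication had 10 (24.4%) and the other 71 had 22 (31.0%), beside the background of 20.3%. The 10 include RPA1, a fork factor, whose peak at rank 2043 is the one already counted for the member Mcm2. By group the counts were 3 of 10 for polymerases and primase, 2 of 11 for GINS, CDC45 and helicase loading, 4 of 13 for fork factors, and 1 of 7 for nucleotide supply and chromatin assembly. They were 2 of 18 for other cyclins and Cdk regulators, 4 of 17 for APC/C and SCF ubiquitin ligases, 4 of 11 for the spindle checkpoint and chromosomal passengers, 5 of 14 for cohesin, condensin and separase, and 7 of 11 for dREAM, a repressor complex that can hold E2F and Rbf, together with the DNA damage checkpoint. In that last group the 5 genes filed under the checkpoint (grp, lok, mei-41, tefu and p53) had a summit. So did 2 of the 6 dREAM genes (Rbf2 and mip130), a division made after the values were seen. Claspin and mus101, which also act in checkpoints but were filed in other groups, had no thresholded promoter summit.

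The leading genes of these groups included replication enzymes and cohesin genes. PolD2, a subunit of DNA polymerase delta, ranked 236 (384 in replicate 2 and 164 in replicate 3), and pds5, a cohesin regulator, ranked 248. SA1 (439), a cohesin subunit, and Cdc16 (495), an APC/C subunit, followed, with RnrS (537), the small subunit of ribonucleotide reductase, and Ctf4 (655), which links helicase and polymerase. All of these peaks are shared, PolD2 with CG13933, pds5 with Mppe, SA1 with Gas41, Cdc16 with orb, RnrS with CG34231 and Ctf4 with CG8067. In the checkpoint group mei-41, the fly ATR kinase, ranked 968, Rbf2, the second retinoblastoma protein, 1251 and lok, the fly Chk2, 2315. The mei-41 peak is also that of TH1, and the Rbf2 peak that of CG32856. The lok peak is also that of barr, a condensin subunit, and the Bub3 peak at rank 2291 is also that of Cap-D2, another condensin subunit. Cdk12 (1308) and Cdk8 (3200) were the only 2 of the 18 other cyclins and Cdk regulators, and both are known mainly as kinases of transcription. Other leading genes were elg1 (1821), Cdc7 (2359), Prim1 (2947), PolE4 (3478), Mps1 (3592), BubR1 (3922), Cul1 (4586), ago (4629) and Psf1 (5844). Of these, PolE4 had no promoter summit in replicate 2 and ranked 3375 in replicate 3, and ago ranked 3054 in replicate 2 and 10141 in replicate 3. E2F elements were at 18 of the 41 replication genes (43.9%), of which 4 had a thresholded promoter summit. They were at 2 of the other 71, and both had such a summit. Over all 112 genes, 6 of the 20 with an element had a thresholded promoter summit, beside 28.6% of the whole list.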

How the data were processed

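Peak lists in narrowPeak format on dm6 were deposited by the authors for replicate 2, replicate 3, both pooled, and the peaks past their irreproducible discovery rate (IDR) threshold. A control alignment entered the peak calling, per the deposited notes. For aligner, caller and IDR threshold, nothing is given in the sources used here. The authors deposited a signal value per peak on an unstated scale, which served only for ranks within each list.

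Gene models were from Ensembl release 115 and sequence from RefSeq's Release 6 assembly. All 34 members had equal coordinates in both annotations, with 0 peaks beyond the end of a chromosome, and coordinates are 1-based. Counts and Wilson 95% intervals were computed in Python 3.11.15 with SciPy 1.17.1, and the summit assignment was tested on simulated data. With 1 group no test between conditions was possible. The members, the wider gene list, its groups and the motifs were chosen with earlier results of these data known. Members with thresholded, highest pooled-only or no promoter peaks are named, with the 3 leading genes of each wider group. Of the wider list, 5 symbols were updated through RefSeq synonyms. Alternatives varied the promoter window, the motif window, the TSS used, the peaks kept and the replicate.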

Additional observations from a re-analysis of the deposited data

How the results depend on the processing

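The count of 12 members was 8 (23.5%) with a 250 bp window, with each summit assigned to the nearest TSS, and with the highest 50% of thresholded peaks, against 15.9%, 15.1% and 11.9% of other genes. It was 13 with a 1000 bp window or any overlapping base, both adding Cdk4, against 24.1% and 21.7%. It was 10 with the most upstream TSS (17.8% of other genes), 9 with peaks found in both replicates (15.4%), and 28 in the pooled list (46.9%). Those 9 lack aurA, dap and dup and include CycE, so they are not the 9 genes common to the replicates' leading peaks. Dp, Mcm2 and dpa had a promoter summit in all 10 alternatives. Replication factors had 10 in the pooled list. Cyclins and kinases had 2 (18.2%) with 250 bp, 1 (9.09%) with the nearest TSS, which is below the 15.1% of other genes, so that the main direction turned, and 9 in the pooled list. The other regulators had 3 with 250 bp, 3 with the highest 50% and 9 in the pooled list. The background had 1662 genes with the highest 50% and 6523 in the pooled list. Members with a summit within the gene were 12 with 250 bp added to each end and 14 with 1000 bp added, against 5. The added bases take in promoter sequence. The share of other genes was not computed with them, so these 2 counts have no background beside them.

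With the leading 6075 peaks of a single replicate, members stayed at 12, replication factors had 3 to 4, cyclins and kinases 3 to 4, the other regulators 5, genes with a summit inside 4 to 6, and the background 2815 to 2954. Without replicate 2, aurA and dap were lost and CycB3 and fzy gained. Without replicate 3, CycE was lost and Mcm5 gained. No paired analysis was possible because both libraries belong to 1 group. Read depth is unknown, so an unlisted peak sets no limit on binding.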
